A study of Mus musculus with 64 samples.

Results

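The genes of fatty acid uptake and oxidation were followed in whole mouse hearts through a day, in mice with and without the clock protein BMAL1 in their cardiomyocytes. The set held 34 listed genes: those for uptake of fatty acids, their carnitine-dependent entry into mitochondria, mitochondrial and peroxisomal beta-oxidation, thioesterases, uncoupling proteins and the electron transfer flavoprotein. A probe belonged to it if the platform annotation gave it one of these gene symbols, and it was kept if its detection p-value was below 0.01 on at least 4 arrays. This left 49 of 51 probes and 30 of the 34 genes, out of 8449 genes and 12101 probes kept on the whole array. Acsl1, Hadha and Ucp2 had no probe under their symbol in the annotation used here. The 1 probe of Cpt1a and 1 of the 3 probes of Acot2 were detected on 0 arrays.

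The knockout mice carried a cardiomyocyte-specific deletion of BMAL1 and the wild-type mice were their littermates. All were males on the C57Bl/6J background with free access to standard chow under a cycle of 12 h of light and 12 h of darkness. Hearts were taken every 3 h from zeitgeber time (ZT, hours after lights on) 0 to 21, which gave 16 groups of 4 arrays and 32 arrays per genotype. Neither age, nor the transgene that drives the deletion, nor the alleles of the controls are given in the sources used here. The labels do not say whether each numbered sample is a separate mouse, and the p-values reflect the variation among the samples, which may be technical. In whole-heart RNA, fewer cells of a type and less RNA per cell cannot be told apart.

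Between 9237 and 10605 probes were detected per array, and the array medians of the scanner intensity lay between 119.4 and 196. The spread around the group means was over 1.5 times that of the median array on 4 arrays, 1 wild type and 1 knockout at ZT 6 and 2 knockouts at ZT 9. Arntl, the gene of BMAL1, had a log2 level of 8.11 ± 0.20 (SD, n = 4) in wild type and 7.33 ± 0.18 in knockout at ZT 3, and at ZT 15 it was 6.55 ± 0.31 in knockout and not detected on any wild-type array. Its 24 h mean differed by 0.07 (adjusted p = 0.528), while its daily curve differed between genotypes (amplitude 1.60 against 0.59, adjusted p = 2.2e-09). Since it was detected on 0 of 4 wild-type arrays at ZT 15, 1 of 4 at ZT 12 and 2 of 4 at ZT 9, the wild-type amplitude and the mean difference rest partly on levels at background. The sources do not place its probe relative to the deleted stretch, so its level is no check of the deletion.

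The heart draws most of its energy from long-chain fatty acids. Lipoprotein lipase frees them from circulating triglyceride, CD36 and FATP1 carry them into the cell, and the carnitine shuttle moves their acyl groups into mitochondria. There each turn of beta-oxidation uses an acyl-CoA dehydrogenase, a hydratase, a hydroxyacyl-CoA dehydrogenase and a thiolase, and the electrons of the first step pass through the electron transfer flavoprotein. Unsaturated chains also need auxiliary isomerases and a reductase, which bring their double bonds into a form that the cycle accepts. Many of these genes are targets of the nuclear receptor PPARα and of the estrogen-related receptors.

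Half-sites of such nuclear receptors were looked for in the RefSeq promoter windows (GRCm38.p6, 250 bases before to 50 after the start, both strands), which exist for 26 of the 34 genes in 29 windows. The hexamer AGGTCA occurred in 6 member windows, 20.7%, against 16.3% of all 32851 windows. Acadm, which was not lower in knockout, and Cpt1a, which was not detected, were among these. Of the members lower in knockout that have a window, 4 hold the half-site. Cpt2, Hadhb, Eci1, Eci2, Ech1, Acot1, Mlycd and Etfb hold none, as is so for most of all windows. Differences between these shares were not tested. A clock E-box, CACGTG, occurred in 1 member window, that of an alternative start of Slc27a1, against 7.15% of all windows. The D-box TTATGTAA and the extended element TCAAGGTCA, which contains the half-site, occurred in 0 member windows and in 0.938% and 0.423% of all windows. The windows below are those of the 4 members that were lower in knockout and hold the half-site, given in capitals, followed by Ech1 and Acot1, whose differences carry the results that follow and whose windows hold none of these letters. They run in the direction of each gene, on the reference strand named. A match describes the letters of the window and says nothing about binding in these hearts.
Cd36 promoter, chr5:17835847-17836146, minus strand: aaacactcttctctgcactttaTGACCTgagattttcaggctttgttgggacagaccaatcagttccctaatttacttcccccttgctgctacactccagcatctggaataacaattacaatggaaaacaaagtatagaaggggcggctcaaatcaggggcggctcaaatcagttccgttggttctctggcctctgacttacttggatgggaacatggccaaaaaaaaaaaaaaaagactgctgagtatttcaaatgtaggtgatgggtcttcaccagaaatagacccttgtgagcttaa
Acadvl promoter, chr11:70015379-70015678, minus strand: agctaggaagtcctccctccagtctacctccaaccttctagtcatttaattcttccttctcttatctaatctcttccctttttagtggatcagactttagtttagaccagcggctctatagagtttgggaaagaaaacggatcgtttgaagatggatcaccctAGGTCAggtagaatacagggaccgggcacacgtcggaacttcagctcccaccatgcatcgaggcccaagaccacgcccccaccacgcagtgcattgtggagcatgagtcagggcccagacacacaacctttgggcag
Echs1 promoter, chr7:140116372-140116671, minus strand: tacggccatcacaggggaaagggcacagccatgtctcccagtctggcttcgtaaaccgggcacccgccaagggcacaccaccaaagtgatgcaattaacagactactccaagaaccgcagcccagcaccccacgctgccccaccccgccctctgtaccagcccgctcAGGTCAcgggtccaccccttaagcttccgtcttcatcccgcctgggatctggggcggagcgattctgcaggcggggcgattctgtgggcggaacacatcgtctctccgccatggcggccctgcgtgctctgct
Ucp3 promoter, chr7:100472741-100473040, plus strand: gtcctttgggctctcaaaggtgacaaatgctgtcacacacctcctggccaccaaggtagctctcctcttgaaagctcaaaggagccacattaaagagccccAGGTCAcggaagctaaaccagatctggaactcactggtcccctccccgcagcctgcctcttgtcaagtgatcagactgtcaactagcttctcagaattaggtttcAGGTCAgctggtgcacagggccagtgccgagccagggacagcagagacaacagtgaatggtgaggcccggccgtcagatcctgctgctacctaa
Ech1 promoter, chr7:28825088-28825387, plus strand: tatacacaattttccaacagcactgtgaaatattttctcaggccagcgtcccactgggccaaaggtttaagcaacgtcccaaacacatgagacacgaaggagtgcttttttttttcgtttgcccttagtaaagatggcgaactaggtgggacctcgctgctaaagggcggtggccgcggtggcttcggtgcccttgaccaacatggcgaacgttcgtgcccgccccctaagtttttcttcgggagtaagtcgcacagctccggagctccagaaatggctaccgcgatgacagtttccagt
Acot1 promoter, chr12:84009252-84009551, plus strand: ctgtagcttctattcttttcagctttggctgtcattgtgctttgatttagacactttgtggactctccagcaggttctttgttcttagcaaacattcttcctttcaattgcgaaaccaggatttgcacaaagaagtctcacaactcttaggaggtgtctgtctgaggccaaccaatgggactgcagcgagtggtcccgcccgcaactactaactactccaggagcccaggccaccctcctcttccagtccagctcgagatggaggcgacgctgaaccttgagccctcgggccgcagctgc

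In the 24 h mean, the average level over the day of a cosine curve fitted to each genotype, 15 of the 30 measured genes were lower in knockout at an adjusted p below 0.05, against 17.4% of all kept probes. None, 0 of 30, was higher, against 17% of all kept probes. Each gene is counted by its brightest probe. With 1 probe per gene over the whole array, 1800 of 9137 probes (19.7%) were lower and 1535 higher. The median difference over the 30 genes was -0.12 log2 units, beside -0.01 over all kept probes, and 24 of the 30 values were below 0, beside 51.7% of all kept probes. By step, 4 of 4 auxiliary enzymes fell, 2 of 4 genes from hydration to thiolysis, 1 of 3 of the carnitine shuttle, 1 of 4 acyl-CoA dehydrogenases, 2 of 5 uptake genes, 1 of 3 thioesterases, 1 of 3 of the flavoprotein and 1 of 2 peroxisomal genes. Differences between the steps were not tested. The counts depend on how the arrays are scaled. Scaling each array to the median of all its probes, in place of quantile normalization, left 7 genes lower (Cd36, Acadvl, Eci2, Ech1, Decr1, Acot1 and Ucp3) and 1 higher, and 21.7% of all calls were then lower, against 50.5% here. Without the 4 widely spread arrays 17 genes were lower, with Crat and Acads added.

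**Figure D1:**
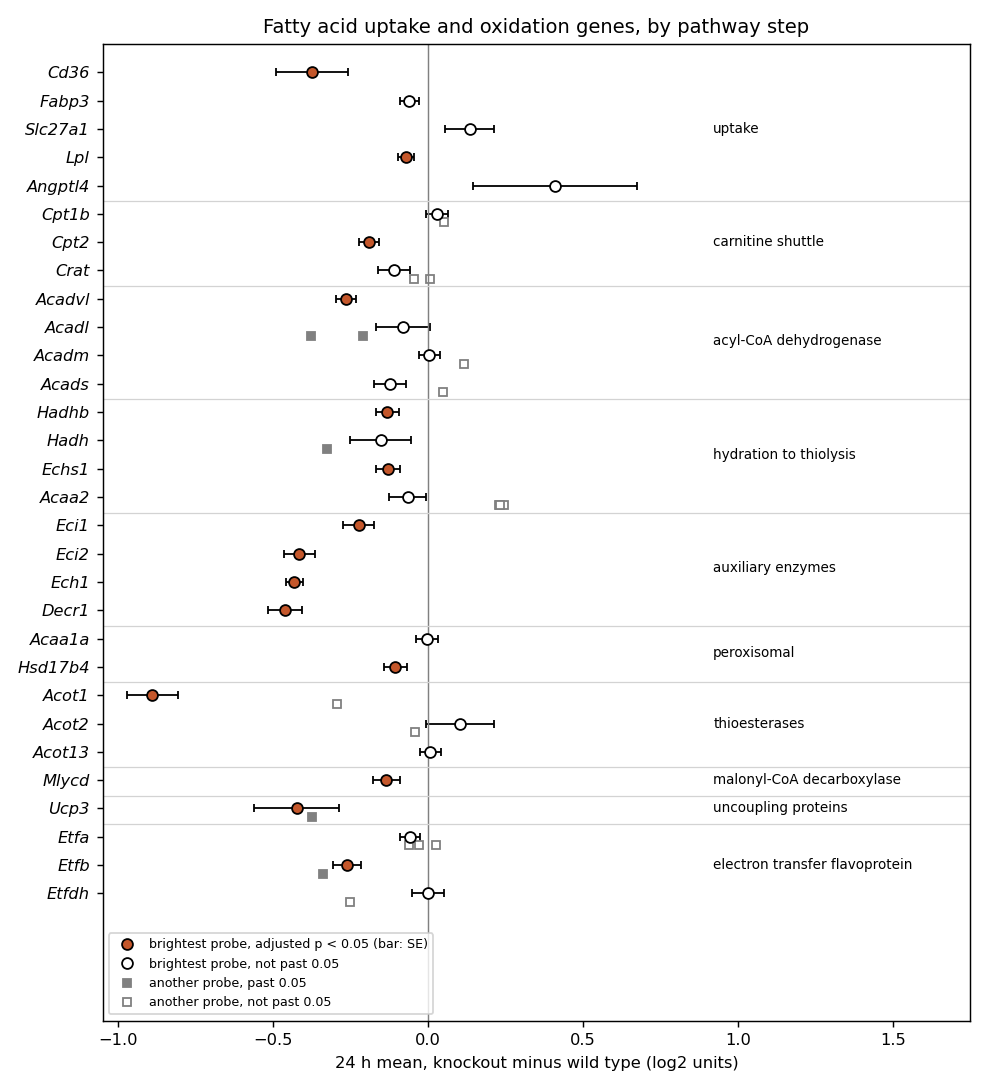
Difference of the 24 h mean, knockout minus wild type, in log2 units for the 30 measured genes, ordered by pathway step. Circles are the brightest probe of each gene with its standard error, squares the other probes of the same gene, and filled symbols passed an adjusted p of 0.05; Acot1, Decr1, Ech1, Ucp3 and Eci2 lie farthest to the left.

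The auxiliary enzymes of unsaturated fatty acids fell, 4 of 4, and Ech1 did so at every time. Ech1, the mitochondrial dienoyl-CoA isomerase, lies on chromosome 7 (GRCm38.p6, 28825338 to 28832239). Its log2 level ran from 14.47 through a median of 14.68 to 14.95 in the 32 wild-type hearts, and from 14.07 through 14.27 to 14.53 in the 32 knockout hearts. Thus 31 of 32 knockout hearts lay below the lowest wild-type heart. The 24 h mean fell by 0.43 ± 0.03 (SE) log2 units (adjusted p = 1.97e-21), so the level decreased by 25.8%. At ZT 18 the wild-type hearts measured 14.74, 14.78, 14.83 and 14.85, and the knockout hearts 14.22, 14.24, 14.24 and 14.24. At ZT 0 the gap was smaller: wild type had 14.64, 14.66, 14.68 and 14.95, and knockout 14.07, 14.40, 14.40 and 14.53. The genotypes did not overlap at any of the 8 times, and Ech1 was the 1 member whose difference passed the test at all 8, with differences from -0.39 to -0.56.

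Decr1, the mitochondrial 2,4-dienoyl-CoA reductase, lies on chromosome 4 (15917240 to 15945377). Its log2 level ran from 9.92 through 10.25 to 10.77 in wild type and from 9.46 through 9.78 to 10.32 in knockout, and its 24 h mean fell by 0.46 ± 0.06 (adjusted p = 3.3e-10). The ranges overlap over the day, but 21 of 32 knockout hearts lay below the lowest wild-type heart. At ZT 12 the wild-type hearts had 10.10, 10.12, 10.18 and 10.29, and the knockout hearts 9.47, 9.49, 9.60 and 9.74. At ZT 9 the difference was -0.25, with 10.29, 10.34, 10.56 and 10.69 in wild type against 10.07, 10.22, 10.26 and 10.32 in knockout, and did not pass the test (adjusted p = 0.354). The genotypes therefore stood apart at ZT 12 and overlapped at ZT 9. Wild-type means alternated between neighbouring times, 10.16 at ZT 0, 10.42 at ZT 3, 10.14 at ZT 6, 10.47 at ZT 9 and 10.17 at ZT 12. The hearts of ZT 0, 6, 12 and 18 carry another range of sample numbers in the labels than those of ZT 3, 9, 15 and 21, and the fit has a term for these 2 time sets. Within each set alone the fall of Decr1 also passed the test.

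Eci2 and Eci1 encode enoyl-CoA isomerases, which shift a double bond to the position that beta-oxidation uses. The log2 level of Eci2 (chromosome 13, 34977748 to 35027115) ran from 10.16 through 10.59 to 10.97 in wild type and from 9.72 through 10.14 to 10.67 in knockout, a fall of 0.42 ± 0.05 (adjusted p = 4.0e-10). Its 4 knockout hearts at ZT 0, at 10.02, 10.02, 10.08 and 10.25, all lay below the wild-type hearts at 10.47, 10.55, 10.78 and 10.90. Eci1 ran from 11.87 through 12.23 to 12.72 in wild type and from 11.50 through 11.94 to 12.49 in knockout, and fell by 0.22 ± 0.05 (adjusted p = 2.1e-04). The difference of Eci1 was uneven over the day. At ZT 0 and 12 it was 0.01 and -0.01 and the genotypes overlapped, while at ZT 15 the 4 knockout hearts (11.67, 11.83, 11.87 and 12.00) lay below the 4 wild-type hearts (12.24, 12.27, 12.30 and 12.36). Over ZT 0, 6, 12 and 18 alone the fall of Eci1 did not pass the test (adjusted p = 0.22). The deviations of Eci1 from its group means correlated at a size of 0.70 with an array pattern described below. On that pattern the knockout arrays scored from -0.27 to 0.26 at ZT 0 and from -0.19 to 0.18 at ZT 12. At ZT 15 they scored from -0.05 to 0.05. Whether the pattern made the difference of Eci1 uneven was not tested.

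**Figure D2:**
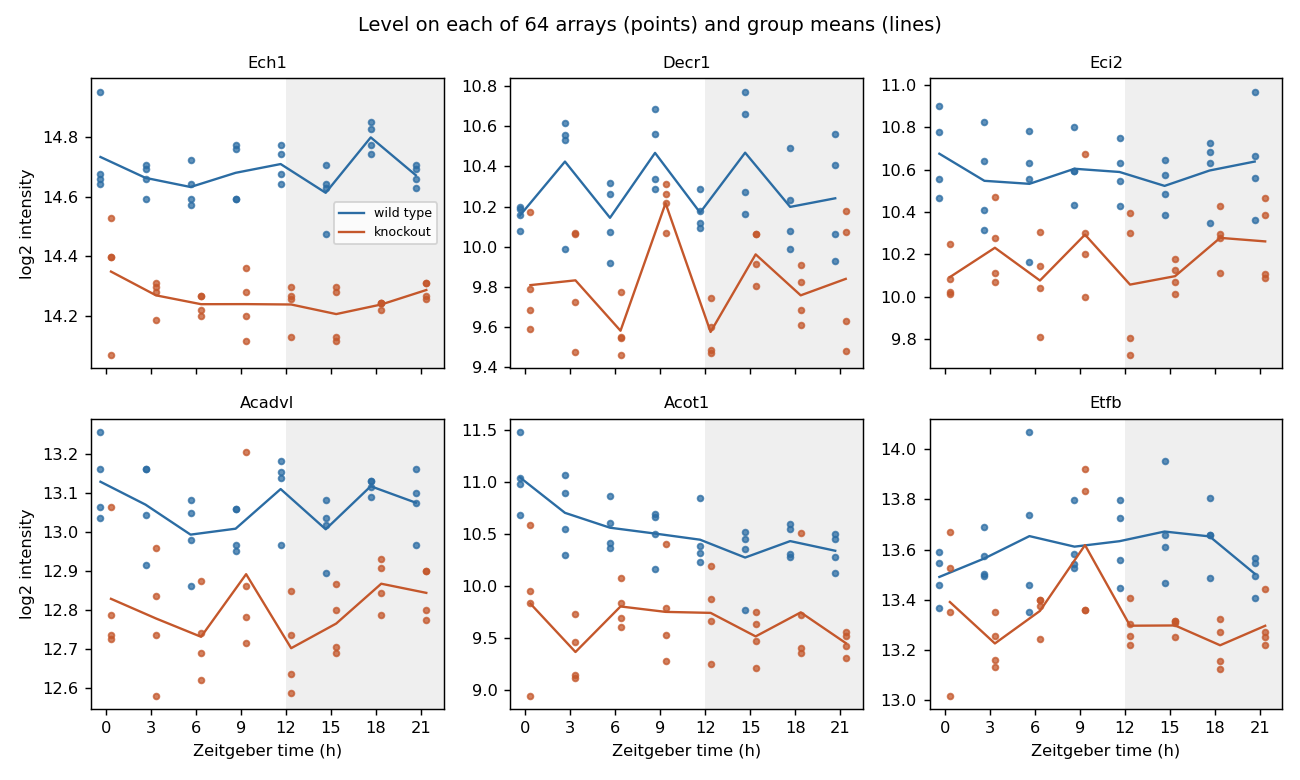
Log2 intensity against zeitgeber time for 6 genes that were lower in knockout, each point 1 array and each line the group means (4 arrays per genotype and time), with the dark phase shaded. The knockout arrays of Ech1 lie below the wild-type arrays at every time, while those of Etfb meet the wild type at ZT 9.

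Of the acyl-CoA dehydrogenases, which start each turn of the cycle on chains of different length, the very-long-chain enzyme Acadvl fell. Its log2 level (chromosome 11, 70010183 to 70015428) ran from 12.86 through 13.07 to 13.26 in wild type and from 12.58 through 12.79 to 13.21 in knockout, and its 24 h mean fell by 0.26 ± 0.03 (adjusted p = 5.2e-10). At ZT 12 the wild-type hearts had 12.97, 13.14, 13.16 and 13.18 and the knockout hearts 12.59, 12.64, 12.74 and 12.85, with no overlap. Acadm, the medium-chain enzyme, had a difference of 0.00 ± 0.03 (adjusted p = 0.933), and Acads, the short-chain enzyme, one of -0.12 ± 0.05 (adjusted p = 0.057). These are values of the brightest probes, and for Acads leaving out any 1 of 11 arrays brought it past the threshold, with differences from -0.13 to -0.15. The other probe of Acads, detected on 64 arrays, gave 0.05 ± 0.07 (adjusted p = 0.617). Acadl, the long-chain enzyme, had 3 kept probes that did not behave alike. Its brightest probe gave -0.08 ± 0.09 (adjusted p = 0.517), the next -0.21 ± 0.05 (adjusted p = 0.0014) and the dimmest, detected on 55 arrays, -0.38 ± 0.12 (adjusted p = 0.0135). By the brightest probe Acadl is counted among the genes that did not pass the test.

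From hydration to thiolysis, 2 of 4 genes fell. Hadhb, the subunit of the trifunctional protein that carries its thiolase, ran from 13.53 through 14.03 to 14.22 in wild type and from 13.45 through 13.93 to 14.20 in knockout. The ranges are nearly the same, and the 24 h mean fell by 0.13 ± 0.04 (adjusted p = 0.0032). Its partner Hadha starts from the opposite strand, and the promoter windows of the pair share 228 bases, but Hadha had no probe here. Over ZT 3, 9, 15 and 21 alone neither Hadhb (-0.09, adjusted p = 0.212) nor Echs1 (-0.12, adjusted p = 0.19) passed the test. Echs1, the short-chain enoyl-CoA hydratase, fell by 0.13 ± 0.04 (adjusted p = 0.0053) and ran from 11.75 through 12.02 to 12.22 in wild type and from 11.16 through 11.90 to 12.13 in knockout. Hadh, the short-chain hydroxyacyl-CoA dehydrogenase, had a difference of -0.15 ± 0.10 by its brightest probe (adjusted p = 0.235) and of -0.33 ± 0.09 by a dim probe detected on 15 wild-type and 4 knockout arrays and on 0 arrays of 6 of the 16 groups (adjusted p = 0.0037). The mitochondrial thiolase Acaa2 had 4 probes, of which the brightest gave -0.07 ± 0.06 and the others 0.23 ± 0.14, 0.24 ± 0.15 and 0.23 ± 0.14. Its probes thus pointed to opposite signs, and none passed the test in the 24 h mean. At ZT 0 the 3 other probes were higher in knockout, by 1.19, 1.18 and 1.21 (adjusted p = 0.033, 0.042 and 0.030), while the brightest gave -0.16. In the first of the 3, the knockout hearts had 10.72, 11.49, 12.83 and 13.10 against 10.30, 10.74, 11.13 and 11.20 in wild type, so 2 of 4 knockout hearts lay far above the wild type and 1 within it.

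Among the genes of uptake, Cd36, the fatty acid translocase, was measured by 1 dim probe, detected on 31 wild-type and 26 knockout arrays. Its log2 level ran from 5.11 through 6.75 to 7.34 in wild type and from 4.64 through 6.30 to 7.10 in knockout, and fell by 0.37 ± 0.12 (adjusted p = 0.0079). The widest gap was at ZT 0, where the wild-type hearts had 6.53, 6.74, 6.76 and 6.85 and the knockout hearts 4.64, 4.93, 6.19 and 6.21. Over ZT 3, 9, 15 and 21 alone the difference of Cd36 was -0.23 and did not pass the test (adjusted p = 0.245). Lpl, lipoprotein lipase, ran from 14.94 through 15.06 to 15.13 in wild type and from 14.57 through 14.99 to 15.13 in knockout, a fall of 0.07 ± 0.03 (adjusted p = 0.0325) that neither time set gave alone. It was the brightest probe of the array on 9 wild-type and 3 knockout arrays, where quantile normalization gives every array the same top value, 15.13, so the size of its difference is limited by that ceiling. Median scaling sets no such ceiling. Over all probes it gave a difference of -0.01 for Lpl (adjusted p = 0.933), with the median difference of all kept probes at 0.06. Over the kept probes, a setting chosen after seeing the data, it gave -0.09 (adjusted p = 0.154). Fabp3, the fatty acid-binding protein of heart and muscle, had a difference of -0.06 ± 0.03 (adjusted p = 0.12) and Slc27a1, the transporter FATP1, one of 0.13 ± 0.08 (adjusted p = 0.198).

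Angptl4, an inhibitor of lipoprotein lipase, varied more within its groups than any other member, with a within-group SD of 1.04 log2 units. At ZT 6 the wild-type hearts had 7.12, 8.08, 8.21 and 10.60 and the knockout hearts 8.84, 9.57, 10.08 and 10.76. At ZT 3 the order was the other way in 3 of 4 knockout hearts, at 6.05, 6.28, 6.71 and 9.17 against 7.20, 7.32, 7.41 and 8.02. Its 24 h mean difference of 0.41 ± 0.26 did not pass the test (adjusted p = 0.238).

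In the carnitine shuttle, the inner-membrane transferase Cpt2 ran from 11.62 through 11.83 to 12.06 in wild type and from 11.27 through 11.62 to 12.07 in knockout. Its 24 h mean fell by 0.19 ± 0.03 (adjusted p = 1.4e-06), and the genotypes did not overlap at ZT 0, 3, 12, 15 and 18. Of these times, only ZT 12 passed the test (adjusted p = 0.0176). Cpt1b, the muscle form of the outer-membrane transferase that commits long chains to oxidation, had differences of 0.03 ± 0.04 and 0.05 ± 0.05 by its 2 probes, with adjusted p of 0.55 and 0.432. Under median scaling of all probes Cpt1b was the 1 member higher in knockout, at 0.15 (adjusted p = 0.03). Crat, carnitine acetyltransferase, had differences of -0.11 ± 0.05, -0.05 ± 0.09 and 0.01 ± 0.10 by its 3 probes, none past the threshold. Without 1 widely spread knockout array of ZT 9 the first of these was -0.15 (adjusted p = 7.5e-04). Mlycd, which removes malonyl-CoA, the inhibitor of the outer-membrane transferases, fell by 0.13 ± 0.04 (adjusted p = 0.014), but over ZT 0, 6, 12 and 18 alone the difference was -0.08 and did not pass the test (adjusted p = 0.492). It ran from 10.79 through 11.31 to 11.64 in wild type and from 10.75 through 11.18 to 11.41 in knockout, with its lower values spread through the overlap.

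Acot1, a cytosolic thioesterase that splits long-chain acyl-CoA, had the largest difference of the brightest probes. It lies on chromosome 12 (84009502 to 84017670), next to its paralog Acot2 (83987861 to 83993877). The log2 level of Acot1 ran from 9.77 through 10.50 to 11.48 in wild type and from 8.94 through 9.62 to 10.59 in knockout, and its 24 h mean fell by 0.89 ± 0.08 (adjusted p = 4.2e-14), a 1.85-fold lower level. At ZT 3 the wild-type hearts had 10.30, 10.55, 10.90 and 11.07 and the knockout hearts 9.11, 9.15, 9.47 and 9.74. The genotypes were apart there and at ZT 0, 6, 12, 15 and 21, and single knockout hearts reached the wild type at ZT 9 and 18. The difference passed the test at 5 single times. Wild-type means declined from 11.05 at ZT 0 to 10.28 at ZT 15, but the fitted rhythm (amplitude 0.24 ± 0.08) did not pass the test (adjusted p = 0.219). The second, dimmer probe of Acot1 gave -0.29 ± 0.13 (adjusted p = 0.062). Acot2, the mitochondrial paralog, had differences of 0.10 ± 0.11 and -0.04 ± 0.08 by its 2 kept probes, and Acot13 one of 0.01 ± 0.03. Whether the probes of Acot1 and Acot2 tell the paralogs apart was not tested.

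Ucp3, the uncoupling protein of heart and skeletal muscle, was dim: its brighter probe was detected on 47 arrays and its dimmer one on 32. By the brighter probe the log2 level ran from 5.14 through 6.22 to 8.06 in wild type and from 4.69 through 5.65 to 7.31 in knockout, and its 24 h mean fell by 0.42 ± 0.14 (adjusted p = 0.0123). Over ZT 0, 6, 12 and 18 alone the difference was -0.22 and did not pass the test (adjusted p = 0.477). The dimmer probe fell by 0.38 ± 0.09 (adjusted p = 4.0e-04). Its genotypes were apart at ZT 3, 12, 15 and 21, but its difference passed the test at 0 single times. At ZT 3 and 21 it was detected on 0 knockout arrays, so its level there is only a bound. This dimmer probe was also the 1 of 49 member probes with a daily rhythm in wild type, beside 3.55% of all kept probes. The fitted amplitude was 0.38 ± 0.09 with a peak at ZT 8.73 (adjusted p = 0.0143). The probe was detected on 22 wild-type and 10 knockout arrays, so part of its curve rests on levels at background. Its wild-type means were 5.50 at ZT 21, 6.12 at ZT 6 and 6.19 at ZT 12, so the level was highest from the middle to the end of the light phase. In knockout the amplitude was 0.28 ± 0.09 (adjusted p = 0.183), and the rhythms of the genotypes were not shown to differ.

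**Figure D3:**
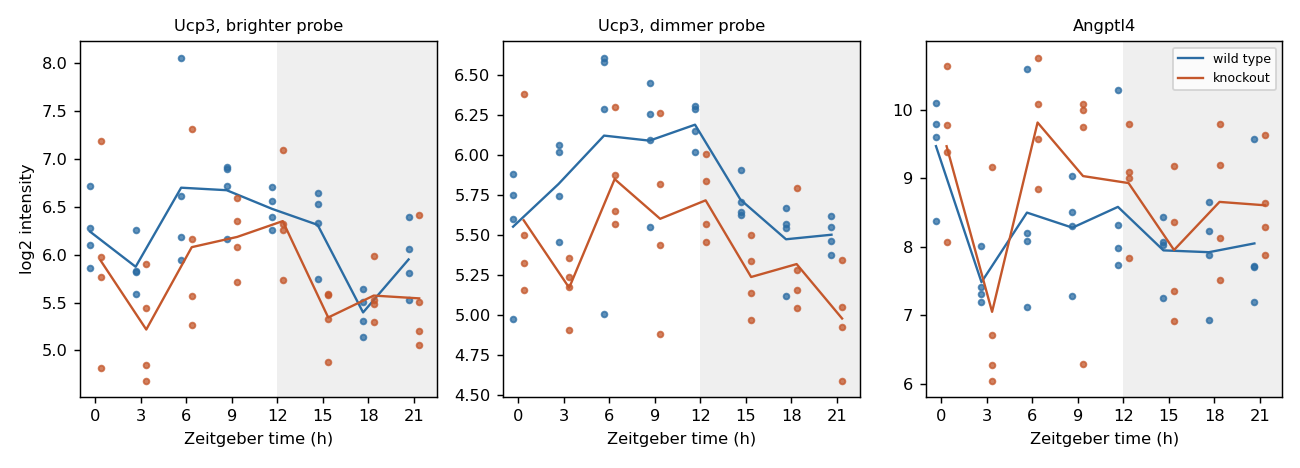
Log2 intensity against zeitgeber time for both Ucp3 probes and for Angptl4, each point 1 array and each line the group means, with the dark phase shaded. The wild-type means of both Ucp3 probes are highest from ZT 6 to 12, and the knockout points of Angptl4 at ZT 9 spread from 6.29 to 10.09.

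The electron transfer flavoprotein takes electrons from the acyl-CoA dehydrogenases and hands them on through its dehydrogenase, Etfdh. The beta subunit Etfb (chromosome 7, 43444072 to 43457800) ran from 13.35 through 13.56 to 14.07 in wild type and from 13.02 through 13.31 to 13.92 in knockout. Its 24 h mean fell by 0.26 ± 0.04 by the brighter probe (adjusted p = 2.1e-06) and by 0.34 ± 0.05 by the other (adjusted p = 1.6e-08). By the second probe the genotypes did not overlap at 6 of 8 times, and the difference passed the test at 5. At ZT 15 wild type had 12.98, 13.16, 13.18 and 13.39 by this probe against 12.58, 12.70, 12.72 and 12.80 in knockout. At ZT 9 both probes gave a difference of 0.01 and 0.00, where 2 knockout hearts stood high at 13.84 and 13.92 by the brighter probe. These 2 are the widely spread arrays of that group, and the other 2 knockout hearts, both at 13.36, lay below the wild-type hearts at 13.53 to 13.80. The alpha subunit Etfa had 4 probes between -0.06 and 0.03, and Etfdh had differences of 0.00 ± 0.05 and -0.25 ± 0.12, none past the threshold.

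Of the 2 peroxisomal genes, Hsd17b4, the multifunctional enzyme of the peroxisomal cycle, fell by 0.11 ± 0.04 (adjusted p = 0.0226). It ran from 10.87 through 11.18 to 11.46 in wild type and from 10.52 through 11.07 to 11.28 in knockout, and neither time set gave the call alone. The peroxisomal thiolase Acaa1a had a difference of 0.00 ± 0.04. Within ZT 0, 6, 12 and 18 alone 10 genes were lower, against 12.8% of all kept probes, and within ZT 3, 9, 15 and 21 alone 10, against 9.18%. The genes lower in both were 7 of 30: Cpt2, Acadvl, Eci2, Ech1, Decr1, Acot1 and Etfb. The share of all kept probes lower in both was not determined, so this count has no background to set it against.

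At single times, by the brightest probes, the members called were all lower, 26 calls in the 240 tests of 30 genes at 8 times. The 3 other probes of Acaa2 were higher in knockout at ZT 0, as given above. There were 6 genes at ZT 0, where 10.7% of all kept probes were called in either direction, 3 at ZT 3 (3.74%), 2 at ZT 6 (3.74%) and 2 at ZT 9 (8.54%). In the dark phase there were 5 genes at ZT 12 (6.8%), 4 at ZT 15 (5.19%), 2 at ZT 18 (5.37%) and 2 at ZT 21 (4.33%). Ech1 made up 8 of these calls, Acot1 5 and Decr1 4. The median difference of the 30 genes was below 0 at each of the 8 times, from -0.09 at ZT 0 to -0.22 at ZT 3, beside medians of all kept probes from -0.03 to 0.01.

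**Figure D4:**
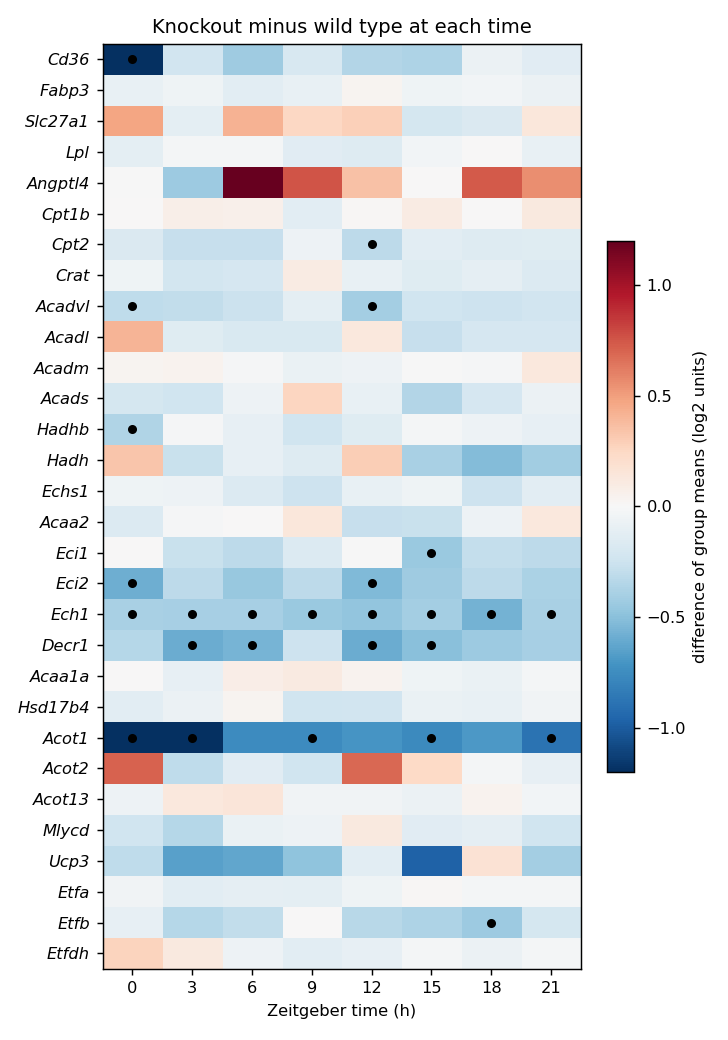
Difference of group means, knockout minus wild type, for each of the 30 genes (rows) at each zeitgeber time (columns), in log2 units; colours are capped at 1.2 in each direction and a dot marks an adjusted p below 0.05. The dots lie on blue cells alone, and Ech1 has one at every time.

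By their brightest probes 0 of 30 genes were rhythmic in wild type, against 3.55% of all kept probes, and 0 of 30 in knockout, against 1.17%. The rhythm differed between genotypes for 0 of 30, against 0.24%. The median amplitude was 0.06 log2 units in each genotype, beside 0.09 over all kept probes. The smallest adjusted p in wild type was that of Ucp3 by its brighter probe, 0.112 with an amplitude of 0.46 ± 0.14. In knockout it was that of Acot13, 0.153 with an amplitude of 0.12 ± 0.03, which passed the test without 1 knockout array of ZT 0 (0.14, adjusted p = 0.0469).

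Other genes of fatty acid handling, from a list of 46, were measured for 31, of which 15 were lower and 6 higher in knockout. The 6 with the smallest adjusted p were named. Slc22a5, the carnitine transporter of the cell membrane, fell by 0.55 ± 0.04 and Slc25a20, the carnitine-acylcarnitine carrier of the inner membrane, by 0.35 ± 0.04. Acsl6, a long-chain acyl-CoA synthetase, fell by 0.95 ± 0.09, Acss1, the mitochondrial acetyl-CoA synthetase, by 0.49 ± 0.04, and Nudt7, a peroxisomal coenzyme A hydrolase, by 0.37 ± 0.04. Dbi, the acyl-CoA-binding protein, rose by 0.53 ± 0.04. The shares of all kept probes were 17.4% lower and 17% higher, and the difference between this list and the members was not tested.

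Of 18 regulators of the pathway 15 were measured, and 6 were lower and 0 higher, beside 17.4% lower and 17% higher of all kept probes. The estrogen-related receptors Esrrb and Esrra fell by 0.48 ± 0.04 and 0.15 ± 0.03, the coactivator Ppargc1a by 0.43 ± 0.11 and the deacetylase Sirt1 by 0.26 ± 0.07. Ppara fell by 0.20 ± 0.08 and Klf15 by 0.40 ± 0.10, both dim: Ppara was detected on 15 wild-type and 7 knockout arrays and Klf15 on 18 and 8. Their part in the differences of the members was not tested.

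Markers of the cell types in the heart were set beside these results. Of all kept probes 17.4% were lower and 17% higher. Of 9 measured cardiomyocyte markers 4 were lower (among them Ryr2 at -0.29, Pln at -0.24 and Myh6 at -0.09) and 1 was higher (Tnnc1 at 0.07). Their summed intensity ran from 176940 to 192910 in wild type and from 169200 to 193230 in knockout. The brightest of them, Myh6, Tnnc1, Actc1, Myl3 and Myl2, had mean log2 levels of 14.8 to 15.0. These lie near the common top value of 15.13, which limits what the sum can show. Adipocytes also express many of the members, and 3 of 11 of their markers were kept, with 1 lower (Lipe at -0.22); Plin1, Cidec, Retn and Fabp4 were detected on 0 arrays. Their summed intensity ran from 243 to 360.1 in wild type and from 208 to 319 in knockout. Skeletal muscle markers had 3 lower and 1 higher of 5 kept, with sums from 3828 to 11152 and from 2361 to 20062, and Myh4 on 0 arrays. Of the other lists, 5 of 11 endothelial, 5 of 10 myeloid, 3 of 8 smooth muscle and pericyte and 1 of 4 red blood cell markers were lower and none of these higher, 3 of 9 fibroblast markers were higher and none lower, and 0 of 1 kept lymphocyte marker was called. The part of these markers in the differences of the members was not tested.

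A pattern over arrays also moved some member probes. The largest shared component of the deviations of all kept probes from their group means took 19.3% of that variance. The 3 upward probes of Acaa2 correlated with it at a size of 0.96 to 0.97 over the 64 arrays, the brighter kept Acot2 probe at 0.90 and the brightest Acadl probe at 0.87. The genes lower in knockout lay on both sides: Eci1 had 0.70, Echs1 0.67, Cd36 0.63, the brighter Ucp3 probe 0.59, Eci2 0.58 and Mlycd 0.50. Ech1 had 0.31, Decr1 0.15 and the brighter Acot1 probe 0.05, but the second Acot1 probe 0.68. The brightest Acaa2 probe had 0.31. Over the 27 pairs of probes of the same gene the median correlation of deviations was 0.26, and over the 1149 pairs of different genes 0.06. The labels do not say which arrays were processed together. The lowest sample numbers, 1, 2, 6, 8, 19 and 22, scored 0.35, 0.35, 0.26, 0.23, 0.17 and 0.18 on the component. Of these, sample 1 is wild type and the others are knockouts, at ZT 0, 6 and 12. The next samples, 30 and 32, scored -0.02 and -0.17. Samples 170 and 206, knockouts at ZT 9, scored -0.34 and 0.21. The highest scores thus lay mostly on low sample numbers and on knockouts. The correlations are given with no test, and the source of the shared component was not tested.

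**Figure D5:**
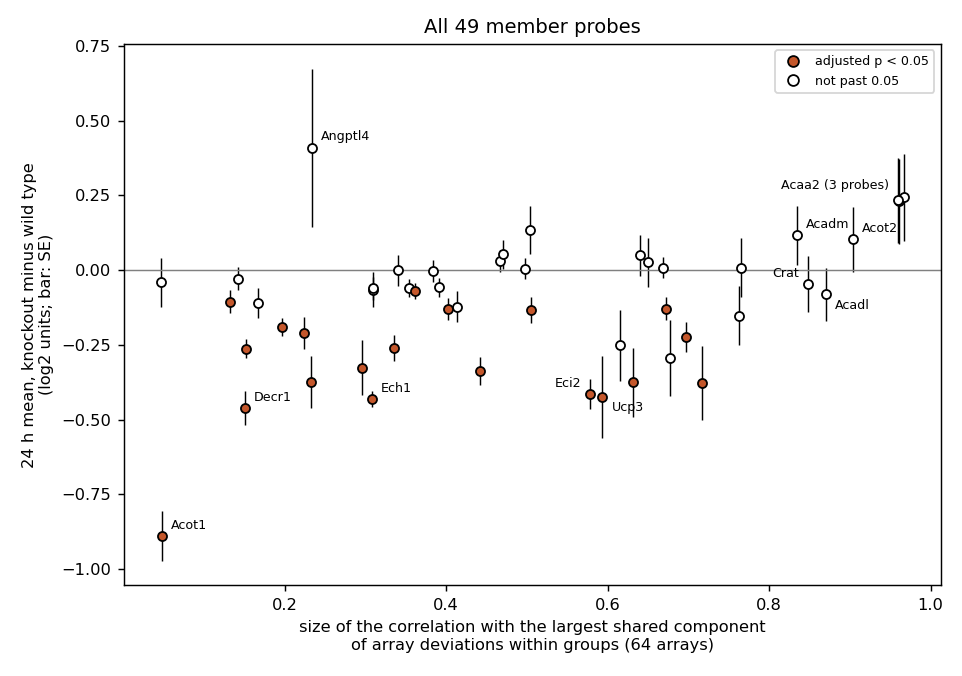
Difference of the 24 h mean with its standard error (log2 units, vertical) against the size of the correlation with the largest shared component of array deviations (horizontal) for all 49 member probes; filled points passed an adjusted p of 0.05. The 3 upward Acaa2 probes lie at the right edge, and the filled points spread from the brighter Acot1 probe at 0.05 to the dimmest Acadl probe at 0.72.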

How the data were processed

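Whole-heart RNA was measured on 64 Illumina MouseRef-8 v2 arrays, 4 per genotype and time. Per the file headers, each deposited column pair holds a mean bead intensity and a detection p-value per probe; the sources used here name no software. A processed intensity per probe comes from the authors too, with a Spearman correlation of 1 to its own scanner column, and 26.2% lie below 0; these values served as an alternative. Background was removed with the normexp model (offset 16), followed by quantile normalization and log2 (R 4.3.3, limma 3.58.1). Of 25697 probes, 12101 with a detection p-value under 0.01 on at least 4 arrays were kept and named from the platform annotation.

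All kept probes were fitted together in limma by a mean, cosine and sine of 24 h for each genotype, with a further term for time set (ZT 0, 6, 12 and 18 against ZT 3, 9, 15 and 21); single times used a mean per group. Benjamini-Hochberg adjustment ran over all kept probes, with a threshold of 0.05. Each gene was counted by its kept probe with the highest mean. The code was tested on simulated data. The number of arrays limits the precision. In all, 14 other settings and leaving out each array in turn were tried. The text names every member, called regulators, 6 genes of the other pathway list and up to 3 per marker list; markers and further pathway genes named beyond this were chosen after their values were seen. The members and lists were chosen with earlier results of these data known. Gene positions and promoters are RefSeq's (GRCm38.p6).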

Additional observations from a re-analysis of the deposited data

Results flagged for a closer look

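Of the 15 genes called in the 24 h mean, 240 groups of 4 arrays were examined and 11 held a highest or lowest array far from the other 3 by Dixon's 95% limit, where chance alone gives about 1 in 20 groups. Arrays are named by genotype, time and sample number.

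In wild type, Eci1 was 12.72 at ZT 6 (sample 1), against 12.12 to 12.17 on the others. Ech1 was 14.95 at ZT 0 (sample 70), against 14.64 to 14.68. Decr1 was 9.99 at ZT 3 (sample 164), against 10.53 to 10.61. Hsd17b4 was 11.15 at ZT 0 (sample 128), against 11.20 to 11.21.

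In knockout, Eci1 was 12.30 at ZT 6 (sample 2), against 11.85 to 11.90, and Echs1 was 11.16 at ZT 9 (sample 170), against 11.86 to 11.97. These 2 arrays, and the wild-type array of Eci1, are among the 4 with a wide spread over all probes. Lpl was 15.13 at ZT 15 (sample 178), against 14.99 to 15.01, and Mlycd was 10.75 at ZT 0 (sample 129), against 11.28 to 11.31. Etfb was 13.24 at ZT 6 (sample 32), against 13.38 to 13.40, and 13.25 at ZT 15 (sample 181), against 13.31 to 13.32. Ech1 was 14.22 at ZT 18 (sample 123), with the other 3 arrays at 14.24.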

How the results depend on the processing

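No paired analysis was possible because every sample number occurs once and the genotypes share none. Under median scaling of all probes, 7 genes were lower, 1 higher and 4 gene-by-time differences passed the test, against 15, 0 and 26; Lpl, Cpt2, Hadhb, Echs1, Eci1, Hsd17b4, Mlycd and Etfb lost their call, over all probes 824 were lower and 2969 higher against 2100 and 2059, and the differences changed sign for Fabp3 (0.0132), Acadl (0.0235), Acaa2 (0.0365), Acaa1a (0.1071), Etfa (0.0392) and Etfdh (0.096). Median scaling over the kept probes, chosen after seeing the data, gave 13 lower, without Lpl and Hsd17b4, with Acaa1a at 0.0223 and Etfdh at 0.0112. With array weights 1 gene, Acot13, was rhythmic in knockout; Acadm was at -0.001 and Acot2 at -0.0073. Without the 4 widely spread arrays Acadm was at -3e-04 and Etfdh at 0.0116. Over ZT 0, 6, 12 and 18 alone Acadl was at 0.0389, Acadm -0.0133, Hadh 0.0019, Acaa1a 0.0095 and Etfdh 0.0093; over the other times alone Acot2 was at -0.1017 and Acot13 at -0.005. Each time set gave 10 lower (12.8% and 9.18% of all kept probes). Leaving out each array in turn gave 15 to 17 lower, 0 to 1 rhythmic in knockout and 23 to 31 gene-by-time differences, with differences from -0.0083 to 0.0189 for Acadm, -0.0245 to 0.0057 for Acaa1a, -9e-04 to 0.0196 for Acot13 and -0.0151 to 0.0251 for Etfdh. The cause of these changes was not tested. Under every other setting 15 to 17 genes were lower and 0 higher. For the dim probes of Cd36, Ucp3, Ppara and Klf15, signal over background limits what can be read.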

Other observations

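Among the 6 genes of the wider fatty acid list that were higher in knockout were, beside Dbi, Acox3 (0.36 ± 0.05), Nudt19 (0.31 ± 0.04), Scp2 (0.31 ± 0.06), Them4 (0.26 ± 0.07) and Acot8 (0.16 ± 0.05). The genes of both paragraphs here were named after their values were seen. Acox3 is a peroxisomal acyl-CoA oxidase, Scp2 holds a peroxisomal thiolase, Nudt19 is a peroxisomal coenzyme A hydrolase and Acot8 is a peroxisomal thioesterase. The peroxisomal bifunctional enzyme Ehhadh, detected on 19 wild-type and 6 knockout arrays, fell by 0.36 ± 0.07, and the peroxisomal transporter Abcd3 fell by 0.24 ± 0.03. Peroxisomal genes of this list thus moved in both directions.

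Acot11, a thioesterase, was the 1 of 31 measured genes of that list with a rhythm in wild type. Of all kept probes 3.55% had one, so the count is near that share. The 24 h mean of Acot11 fell by 0.40 ± 0.05. Its wild-type amplitude was 0.28.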
